A study of Mus musculus with 35 samples.

Results

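The comparison covers antibiotics in Shank3-deficient (KO) mice: the 3 KO_abx libraries were set against the 4 KO_control libraries for all 14870 genes of the deposited matrix. The 7 libraries are of 35 in all, and they were taken by the genotype and treatment in the labels. Each library is bulk RNA of tissue punched from medial prefrontal cortex (mPFC), which is involved in social behaviour. KO_abx mice received antibiotics, and KO_control mice received water; both carry the same Shank3 deficiency. The sources used here do not give the allele, the antibiotics used, the length of treatment or the ages of the mice. Side by side stand KO_abx_and_acetate (antibiotics with acetate, 4 libraries), and in wild-type (WT) mice WT_abx (antibiotics, 4 libraries) and WT_control (water, 6 libraries). Whether each library is a different animal is not stated in the labels, so a p-value covers only the spread among these samples, which may be technical.

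Antibiotics given by mouth deplete the bacteria of the gut, which ferment fibre to short-chain fatty acids such as acetate. Gut bacteria are known to influence the brain through such metabolites, through immune signals and through the hypothalamic-pituitary-adrenal axis, whose end product is the glucocorticoid hormone. Shank3 encodes a scaffold of the postsynaptic density of excitatory synapses, and its loss in mice is used to model Phelan-McDermid syndrome and autism.

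Values are log2 counts-per-million (log2 CPM), which scale reads to library size, and depths are in mega-reads (M). KO_abx held 2 males and 1 female with 19.8 to 21.8 M reads per library, and KO_control 2 males and 2 females with 21.5 to 25.4 M. RNA integrity numbers were 9.2, 9.3 and 9.0 in KO_abx 1 to 3, and 8.9 to 9.1 in KO_control; sex and RNA integrity thus differ between the groups. Among the 7 libraries, the first principal component held 30.2% of the variance and set KO_control 1 (47.1) apart from the other 6 (-19.5 to 13.5). KO_control 1 was the highest of the 7 libraries for 24.4% of all genes and the lowest for 24.2%. Some WT libraries went against their labels: the library labelled WT_abx 4 had 7.48 log2 CPM of Shank3 and 4.56 of Acr, against 8.24 to 8.85 and -0.46 to 0.58 in the WT_control libraries, and the library labelled WT_abx 3, female by label, had a mean of 4.90 log2 CPM over 4 Y-linked genes, as in the males. In the acetate group of WT mice, which enters the shared fit, the libraries labelled WT_acetate 2, WT_acetate 4 and WT_acetate 5 also went against their labels in these genes. WT values are therefore given with and without these libraries where they matter. Of the excitatory cortical neuron markers, 10 of 10 were measured, summing to 8230 to 9300 CPM in KO_abx and 7970 to 9530 CPM in KO_control. These markers do not single out mPFC, so they cannot check that part of the label. Striatal medium spiny neuron markers summed to 674 to 765 CPM in KO_abx and 686 to 789 CPM in KO_control.

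Shank3 itself was below its WT_control range in both KO groups. It had 4.71, 4.53 and 4.91 log2 CPM in KO_abx, against 5.11, 4.66, 4.32 and 4.52 in KO_control. The values overlapped, and the log2 fold of KO_abx minus KO_control was 0.05 ± 0.20 (SE). The related scaffold genes Shank1 and Shank2 had log2 folds of -0.16 ± 0.15 and -0.10 ± 0.15. Acr, the sperm protease gene next to Shank3 on chromosome 15 (89568326 to 89574585, GRCm38, plus strand), had 5.62, 5.53 and 5.63 log2 CPM in KO_abx against 5.78, 5.62, 5.36 and 5.64 in KO_control. Fgl1, a secreted fibrinogen-like protein, had a log2 fold of -0.23 ± 0.44. None of these genes passed the test, in which a gene counts as called at an adjusted p under 0.05 (limma, Benjamini-Hochberg over all genes).

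Antibiotics were followed by few detectable changes in KO cortex. By limma, 0 genes (0%) were called higher in KO_abx and 2 genes (0.0134%) were called lower. Both are poorly characterised members of multicopy families on chromosome 14, Gm2897 and Gm2260. The third smallest adjusted p was 0.999. At an unadjusted p under 0.05, 245 genes (1.65%) were higher and 246 (1.65%) were lower. The 3 KO_abx values lay above all 4 KO_control values for 333 genes (2.24%) and below them for 240 (1.61%). Over all genes the median log2 fold was 0.00, and 7574 genes had a positive one. The median SE of a log2 fold was 0.12 for genes with a mean of at least 0 log2 CPM and 0.47 below that.

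**Figure D1:**
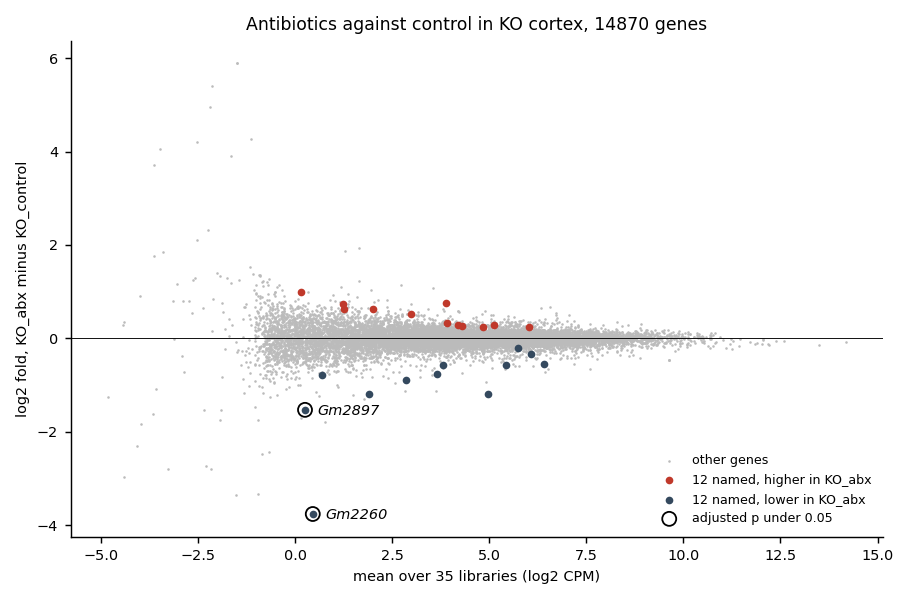
Each point is 1 of 14870 genes, by its mean over 35 libraries (x, log2 CPM) and its log2 fold of KO_abx minus KO_control (y). Circles mark Gm2897 and Gm2260, the 2 genes at an adjusted p under 0.05, and coloured points mark the 12 genes in each direction with the smallest p, whose adjusted p is 0.999 apart from those 2.

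Gm2897 is annotated as protein coding (chromosome 14, 3049285 to 3076840, GRCm38, plus strand). It had -0.54, -0.93 and -0.58 log2 CPM in KO_abx, against 1.17, 0.94, 0.98 and 0.27 in KO_control. The groups did not overlap, and the log2 fold was -1.53 ± 0.27 (SE), 2.89-fold lower, with adjusted p = 0.0374 by limma. Behind these values stand 14, 11 and 13 reads in KO_abx and 50, 42, 45 and 30 reads in KO_control. In KO_abx_and_acetate the log2 fold against the same controls was -0.13 ± 0.26. In WT it was 0.46 ± 0.23 (0.35 ± 0.30 without the libraries that went against their labels).

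Gm2897 is uncertain because its transcripts resemble those of 37 other annotated genes at 95% identity over at least 50% of their length, and 20 of these were measured. Reads from one copy can be counted for another. Of the 20 measured relatives, 9 had a log2 fold below 0 and 11 above 0, from -1.03 to 0.54 with a median of 0.12. Gm10409 and Gm3020 had the same group means and the same log2 fold (0.29 ± 0.44), so the 20 may not be separate measurements. Gm3558 had the lowest p among the relatives, with a log2 fold of -0.61 ± 0.24. Gm3696 was at 0.54 ± 0.24, with all 3 KO_abx values above the controls. Members of the family thus had log2 folds of both signs.

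Gm2260 is annotated as an unprocessed pseudogene (chromosome 14, 26016431 to 26025837, plus strand). It had -3.08, -3.87 and 0.59 log2 CPM in KO_abx, against 1.47, 1.61, 1.78 and 2.15 in KO_control. KO_abx 1 and KO_abx 2 stood far below the rest, with 2 reads and 1 read, while KO_abx 3 had 30 and the controls 62, 67, 79 and 112. The fitted log2 fold was -3.76 ± 0.68 (SE; adjusted p = 0.0374, limma); its size rests on those 2 nearly empty libraries. Within males it was -5.01, and within females, with 1 library against 2, it was -1.38. In KO_abx_and_acetate the log2 fold of Gm2260 against the same controls was -1.49 ± 0.63. In WT it was -0.27 ± 0.57 (-0.22 ± 0.71 without the libraries that went against their labels).

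Gm2260 has 2 near-identical relatives by the same measure, both measured: the pseudogene Gm2274 and Anxa11, which encodes the calcium-dependent membrane-binding protein annexin A11. Gm2274 had 31, 45 and 12 reads in KO_abx, against 35, 0, 0 and 0 in KO_control. It was high where Gm2260 was nearly empty, and at 0 reads in 3 of the 4 controls. Gm2274 also varied within the WT groups, with 0 and 40 reads in WT_control 1 and WT_control 2, and 0 and 15 in WT_abx 1 and WT_abx 2. It did not pass the test, and no fold is given because 3 controls had 0 reads. Summed, the pair had 1.57, 2.10 and 2.08 CPM in KO_abx, against 4.31, 3.03, 3.42 and 4.43 CPM in KO_control, so the sum was also lower in all 3 KO_abx libraries. In KO mice given acetate without antibiotics the sums were 1.20, 1.82, 4.14, 1.80 and 4.20 CPM. In KO_abx_and_acetate the sums were 2.1, 2.51, 1.51 and 1.4 CPM, all below KO_control. In WT the sums were 1.6, 1.38, 1.75 and 2.3 CPM in WT_abx, against 2.63, 2.4, 2.17, 3.83, 3.24 and 2.83 in WT_control. The WT groups overlapped only through WT_abx 4 (2.3), which went against its label, as did WT_abx 3. A difference in the sums was not tested. Anxa11 had 5.14, 5.40 and 5.10 log2 CPM in KO_abx, against 5.87, 5.52, 5.65 and 6.22 in KO_control. These groups did not overlap, and the log2 fold was -0.57 ± 0.23, which did not pass after adjustment.

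**Figure D2:**
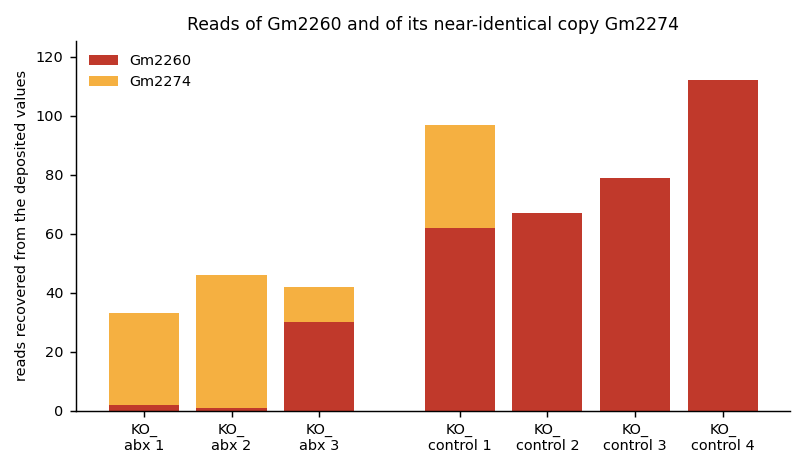
Stacked bars give the reads of Gm2260 (red) and of its near-identical copy Gm2274 (yellow) in each of 7 libraries, KO_abx on the left and KO_control on the right. Gm2274 takes most of the pair's reads in KO_abx 1 and 2 and none in KO_control 2, 3 and 4.

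Both calls depended on the shared fit. With the 7 libraries alone, or with the 16 KO libraries alone, 0 genes were called, and the adjusted p of Gm2897 was 1 and 0.392 in these fits, while its log2 fold stayed at -1.56 and -1.55. With the RNA integrity number as a further term, 0 genes were called and the adjusted p was 0.227 for each gene. Leaving out KO_abx 1, KO_abx 2, KO_control 1, KO_control 2 or KO_control 3 left 0 genes called, and so did leaving out WT_control 4, WT_control 5, WT_control 6, WT_abx 1 or WT_abx 3, which enter through the shared spread and the shared sex term. Without KO_abx 3 only Gm2260 was called (-5.06, adjusted p = 0.00015), and without KO_control 4 only Gm2897 (-1.71, adjusted p = 0.0184).

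The 12 genes with the smallest p in the upward direction are given as values, since none passed after adjustment (adjusted p = 0.999 each, limma). They were selected for their p, so their separation is no support. Hes5, a basic helix-loop-helix repressor that Notch signalling induces, had 4.45, 4.27 and 4.18 log2 CPM in KO_abx, against 3.29, 3.80, 3.63 and 3.49 in KO_control. Its log2 fold was 0.76 ± 0.23, 1.69-fold, while in WT it was 0.00 ± 0.20. Gna15, the alpha subunit of a Gq-class G protein, had 1.64, 1.58 and 1.53 in KO_abx, against 0.49, 1.07, 0.98 and 0.85 in KO_control. Fam212a had 0.75, 0.61 and 0.73 log2 CPM in KO_abx, against -0.45, -0.34, 0.02 and -0.30 in KO_control, a log2 fold of 1.0 ± 0.28.

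Nrm, which encodes the inner nuclear membrane protein nurim, had a log2 fold of 0.63 ± 0.17, and Atg9b, a membrane protein of autophagy, one of 0.62 ± 0.18. Gstm4, a glutathione S-transferase, was at 0.53 ± 0.16. The other 6 had log2 folds of 0.24 to 0.32: Cptp (ceramide-1-phosphate transfer), Abhd11 (a mitochondrial hydrolase), Tvp23a (Golgi traffic), Trim27 (a ubiquitin ligase), Klhl23 (a kelch-family protein) and Utp15 (ribosomal RNA processing). Atg9b overlaps Nos3 on the other strand and Tvp23a overlaps Nubp1; the sources used here do not say whether counting used strand, so reads of such pairs may be mixed.

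Among the 12 in the downward direction, 10 are left after Gm2897 and Gm2260, again as values (adjusted p = 0.999 each, limma). Cdkn1a, the cyclin-dependent kinase inhibitor p21, had 4.28, 4.99 and 4.19 log2 CPM in KO_abx, against 6.32, 4.95, 5.79 and 5.69 in KO_control. Its log2 fold was -1.19 ± 0.36, 2.28-fold lower, and KO_abx 2 lay above KO_control 2. Rasd1, a Ras-like protein first found as induced by the glucocorticoid dexamethasone, had 1.23, 1.95 and 1.23 in KO_abx, against 3.51, 1.65, 2.59 and 2.96 in KO_control. In both genes KO_control 1 was the highest library.

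Maml3, a coactivator of Notch, had 3.45, 3.64 and 3.11 log2 CPM in KO_abx, against 3.89, 4.15, 3.98 and 4.68 in KO_control. Pdzd2, a protein with PDZ domains, had 6.23, 6.51 and 6.14 in KO_abx, against 7.05, 6.64, 6.74 and 6.87 in KO_control, and a log2 fold of -0.54 ± 0.15. Jdp2, a repressor that pairs with Jun, was at -0.57 ± 0.18 and the ubiquitin ligase gene Rfwd2 at -0.34 ± 0.10. In each of these 4 genes the groups did not overlap. Pcdha5, a clustered protocadherin (-0.56 ± 0.14), shares exons with its neighbours and resembles 9 measured members of its cluster, so its reads cannot be told apart from theirs with certainty. Smim3 (-0.89 ± 0.26), the glutathione-cleaving enzyme gene Ggt1 (-0.78 ± 0.22) and the splicing factor gene Rbm10 (-0.20 ± 0.06) complete the list; Rbm10 overlaps Ndufb11 on the other strand.

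**Figure D3:**
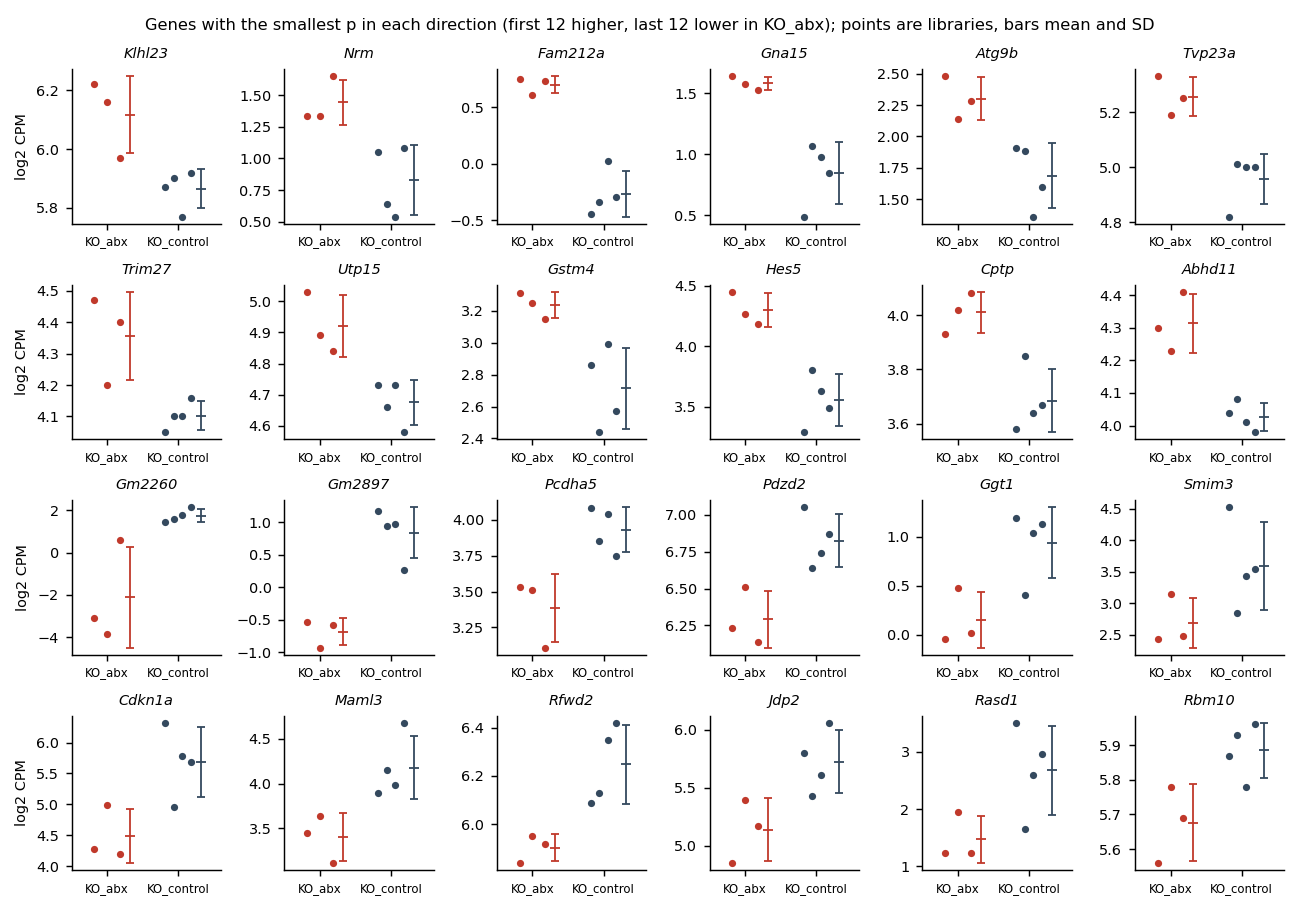
Each panel is 1 gene, with log2 CPM of 3 KO_abx libraries (red, left) and 4 KO_control libraries (dark, right) as points in the order of their numbers, and the mean with SD as a bar. The 12 genes of the upper rows are higher and the 12 of the lower rows lower in KO_abx; in Cdkn1a, Rasd1 and Smim3 the first control point stands above the other 3.

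Glucocorticoid-responsive genes had the median log2 fold farthest from 0 of the 36 gene lists examined, a rank that did not hold without KO_control 1. Of 23 measured members, 22 had a negative log2 fold and 1 a positive one, with a median of -0.51 against 0.00 over all genes. No member passed after adjustment; 11 were lower at an unadjusted p under 0.05, where 1.65% of all genes were. The values turned on 1 library. KO_control 1 was the highest of the 7 libraries for 21 of the 23 members, and its list score (the mean deviation of the members from their means over 35 libraries) was 1.38. The other list scores were -0.31, 0.06 and -0.13 in KO_abx, and -0.20, 0.28 and 0.23 in KO_control 2 to 4. Without KO_control 1 the median was -0.18, with 19 members below 0 and 2 lower at an unadjusted p under 0.05, where 2.56% of all genes were lower in that fit; lists such as blood markers (-0.31) and endoplasmic reticulum stress genes (-0.30) then lay farther from 0. Cdkn1a, described above, is the member with the smallest p.

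Fkbp5, a cochaperone that restrains the glucocorticoid receptor, had 4.59, 5.30 and 4.56 log2 CPM in KO_abx, against 7.33, 5.02, 5.42 and 5.20 in KO_control. One control stood about 2 units above the other 3, which overlapped with KO_abx. Plin4, a lipid droplet protein, had 1.74, 2.24 and 2.30 in KO_abx, against 6.29, 2.57, 1.95 and 2.76 in KO_control. The kinase gene Sgk1 had 5.28, 5.18 and 5.35 in KO_abx, against 7.06, 4.98, 5.78 and 5.33 in KO_control. Klf9, a transcription factor, was less tied to that library, at 7.21, 7.59 and 7.35 in KO_abx against 7.93, 7.45, 7.76 and 7.85 in KO_control (log2 fold -0.35 ± 0.11). Zbtb16, a zinc finger repressor, was the 1 member whose groups did not overlap, with 5.83, 6.29 and 6.12 in KO_abx against 7.18, 6.64, 6.46 and 6.59 in KO_control.

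In WT mice the same list had a median of 0.10 with antibiotics, and -0.01 without the libraries that went against their labels. The difference between genotypes (KO minus WT response) had a median of -0.57 over the list, with 7 members at an unadjusted p under 0.05, all lower, where 1.15% of all genes were lower and 1.32% higher. The KO side of this difference includes KO_control 1, on which the KO values of this list turned. The difference is not given here without that library. Fkbp5 had a difference of -1.23 ± 0.44 and the metallothionein gene Mt2 one of -0.93 ± 0.32. Without the WT libraries that went against their labels these were -1.02 ± 0.52 and -1.04 ± 0.39, the median was -0.50 and 4 members were lower at an unadjusted p under 0.05, Fkbp5 no longer among them. None passed after adjustment. List scores were -0.10 to 0.26 in WT_abx, and -0.05 to 0.23 in WT_control, all far under that of KO_control 1.

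The glucocorticoid receptor binds DNA as a pair, at sites whose core can be written ACANNNTGT. In the 250 bases before the start of each gene (RefSeq, GRCm38.p6, either strand), 3 of 20 members with a promoter in the table held it, Map3k6, Mt1 and Sgk1, against 4.53% of 11038 genes. A match is a description of the letters only. Of these, Map3k6, a kinase gene, had 2.13, 3.09 and 2.42 log2 CPM in KO_abx, against 4.73, 2.62, 3.15 and 2.67 in KO_control. The windows of Map3k6 and Sgk1 are shown because both genes were highest in KO_control 1. Capitals mark the core, which begins 179 and 127 bases before the start shown. Another start of Sgk1 (window chr10:21993640-21993889) also held a core, 186 bases before it, and is not shown.

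Map3k6 (chr4:133240568-133240817, GRCm38.p6, plus strand): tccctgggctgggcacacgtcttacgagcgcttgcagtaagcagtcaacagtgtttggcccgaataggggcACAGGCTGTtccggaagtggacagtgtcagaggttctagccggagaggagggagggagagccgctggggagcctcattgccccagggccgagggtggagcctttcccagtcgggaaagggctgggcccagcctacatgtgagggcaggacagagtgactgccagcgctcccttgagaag

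Sgk1 (chr10:21978422-21978671, GRCm38.p6, plus strand): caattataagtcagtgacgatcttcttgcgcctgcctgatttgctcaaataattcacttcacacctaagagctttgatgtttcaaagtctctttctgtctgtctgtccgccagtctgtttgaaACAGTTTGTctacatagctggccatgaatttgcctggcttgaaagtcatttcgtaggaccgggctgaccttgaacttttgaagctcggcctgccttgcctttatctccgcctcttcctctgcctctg

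**Figure D4:**
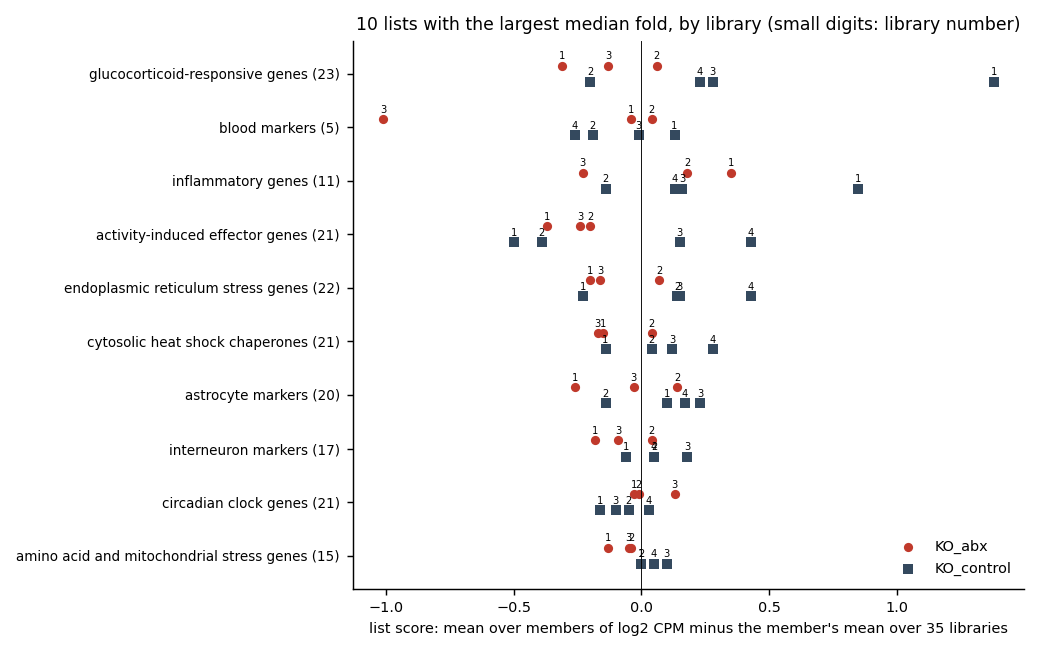
Each row is 1 of the 10 gene lists with the largest median log2 fold (members in brackets), and each symbol 1 library, KO_abx (red circles) above KO_control (dark squares), at its list score on the log2 scale. KO_control 1 stands at 1.38 for glucocorticoid-responsive genes and 0.85 for inflammatory genes, and KO_abx 3 at -1.01 for blood markers.

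Endoplasmic reticulum (ER) stress genes had small negative log2 folds in nearly every member. The list holds chaperones, which fold secreted and membrane proteins, and other genes, such as the transcription factor genes Xbp1 and Atf6. Many of these genes are induced together by the unfolded protein response. Of 22 measured members, 21 had a negative log2 fold and 1 a positive one, with a median of -0.19. None passed after adjustment and 3 were lower at an unadjusted p under 0.05, where 1.65% of all genes were lower. Hspa5, the main ER chaperone (BiP), had 7.59, 7.87 and 7.36 log2 CPM in KO_abx, against 7.43, 8.17, 8.03 and 8.65 in KO_control. KO_control 1 lay within the KO_abx range and the other 3 controls above it.

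Sdf2l1, a partner of BiP, had 3.06, 3.63 and 3.06 log2 CPM in KO_abx, against 3.01, 3.99, 3.91 and 4.66 in KO_control. Its log2 fold was -0.64 ± 0.28, and that of the secreted ER stress protein gene Manf was -0.35 ± 0.16. The same libraries were at the extremes in most members: KO_control 4 was the highest for 18 of 22 and KO_control 1 the lowest for 11. Without KO_control 1 the median was -0.30 with 13 members lower at an unadjusted p under 0.05, where 2.56% of all genes were lower in that fit. Without KO_control 4 the median was -0.11 with 0 members lower, where 1.26% of all genes were. WT values lay close to those of KO, with a median of -0.20 over the list and -0.50 ± 0.18 for Hspa5. Without the libraries that went against their labels these were -0.11 and -0.26 ± 0.22.

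Many ER chaperone genes share the ER stress element, CCAAT, then 9 bases, then CCACG, which the unfolded protein response uses. It was found in the window of 8 of 19 members with a promoter in the table (Hspa5, Calr, Hsp90b1, Pdia6, Dnajc3, Creld2, Syvn1 and Canx), against 0.154% of 11038 genes. The lectin chaperone genes Calr and Canx had log2 folds of -0.30 ± 0.15 and -0.05 ± 0.07, the protein disulphide isomerase gene Pdia6 -0.26 ± 0.17 and Creld2 -0.22 ± 0.19. Members with and without the element thus both had negative log2 folds. Windows of 3 members are shown with both parts in capitals, since the element is the feature they share; in Creld2 it lies on the other strand and reads backwards. It begins 65, 98 and 126 bases before the start.

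Hspa5 (chr2:34771840-34772089, GRCm38.p6, plus strand): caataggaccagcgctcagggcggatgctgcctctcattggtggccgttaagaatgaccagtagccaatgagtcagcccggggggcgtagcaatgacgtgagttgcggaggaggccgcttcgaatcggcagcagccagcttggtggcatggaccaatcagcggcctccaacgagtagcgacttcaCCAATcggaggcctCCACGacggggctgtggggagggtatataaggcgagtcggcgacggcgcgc

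Pdia6 (chr12:17266339-17266588, GRCm38.p6, plus strand): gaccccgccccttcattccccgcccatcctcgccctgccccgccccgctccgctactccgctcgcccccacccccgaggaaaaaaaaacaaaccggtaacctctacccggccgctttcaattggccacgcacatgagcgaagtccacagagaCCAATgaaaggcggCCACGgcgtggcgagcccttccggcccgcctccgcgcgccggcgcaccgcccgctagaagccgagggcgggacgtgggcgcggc

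Creld2 (chr15:88819396-88819645, GRCm38.p6, plus strand): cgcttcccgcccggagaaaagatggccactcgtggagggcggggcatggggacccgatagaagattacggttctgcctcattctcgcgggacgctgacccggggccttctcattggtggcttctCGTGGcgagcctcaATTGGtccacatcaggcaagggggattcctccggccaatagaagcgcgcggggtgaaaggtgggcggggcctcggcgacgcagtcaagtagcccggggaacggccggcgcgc

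Heat shock chaperones of the cytosol and mitochondria, which a separate stress response controls, had a negative log2 fold in 21 of 21 measured members, with a median of -0.13. The small heat shock protein gene Hspb1 had 2.94, 2.68 and 1.99 log2 CPM in KO_abx, against 3.38, 2.56, 3.49 and 3.59 in KO_control. It was the 1 member at an unadjusted p under 0.05, where 1.65% of all genes were lower. The cochaperone gene Chordc1 had a log2 fold of -0.27 ± 0.15 and Hsph1, which helps HSP70 release its substrates, one of -0.26 ± 0.15. KO_control 4 was the highest library for 15 of 21 members and KO_control 1 the lowest for 13. The heat shock core GAANNTTC stood in the window of 7 of 17 members, against 6.17% of 11038 genes. The windows of Hspd1 and Hspe1 overlap and hold the same site, and those of Hspa1a and Hspa1b are near-identical, so the 7 are not all separate sites. In WT the median was -0.13 with 20 of 21 below 0, and -0.08 with 18 of 21 below 0 without the libraries that went against their labels. Amino acid and mitochondrial stress genes had a median of -0.10 with 11 of 15 below 0. Among them Mthfd2, a mitochondrial folate enzyme gene, had 2.35, 2.36 and 3.01 log2 CPM in KO_abx, against 3.33, 3.0, 2.79 and 3.06 in KO_control, and the transcription factor gene Atf5 had 4.20, 4.50 and 4.31 in KO_abx, against 4.74, 4.50, 4.80 and 4.73 in KO_control. Atf4, the main transcription factor of this response, had a log2 fold of -0.18 ± 0.12.

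Circadian clock genes had log2 folds of both signs. The activators CLOCK and BMAL1 (gene Arntl) drive the repressors and output genes, and Nr1d1 in turn represses Arntl. Of 21 measured members, 15 had a positive log2 fold and 6 a negative one, with a median of 0.11; none passed after adjustment. At an unadjusted p under 0.05, 4 were higher and 3 lower, where 1.65% of all genes were in each direction. Dbp, an output transcription factor, had 6.76, 6.32 and 6.81 log2 CPM in KO_abx, against 5.73, 6.31, 6.14 and 5.72 in KO_control. The groups did not overlap, though KO_abx 2 and KO_control 2 nearly met, and the log2 fold was 0.66 ± 0.22, 1.58-fold.

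Nr1d1 (REV-ERB alpha) had 7.21, 7.26 and 7.32 log2 CPM in KO_abx, against 6.86, 6.89, 7.04 and 6.75 in KO_control, with no overlap. The repressor gene Bhlhe41 had 5.72, 5.44 and 5.78 in KO_abx, against 5.03, 5.30, 5.29 and 5.03 in KO_control, also with none. Tef, a relative of Dbp, was at 0.28 ± 0.11, and Ciart, a repressor of CLOCK-BMAL1, at 0.63 ± 0.31. On the activator side, Arntl had 4.57, 5.17 and 4.90 in KO_abx, against 5.23, 5.10, 5.27 and 5.45 in KO_control, a log2 fold of -0.38 ± 0.17. Npas2, which can stand in for CLOCK, had 5.40, 5.41 and 5.30 in KO_abx, all below 5.6, 5.59, 5.55 and 5.6 in KO_control. Clock was at -0.16 ± 0.07, and Nfil3, which opposes Dbp at shared sites, at -0.60 ± 0.27. The period genes overlapped between the groups (Per1 0.25 ± 0.21, Per2 0.27 ± 0.29, Per3 0.11 ± 0.24). The sources used here do not give the time of day at which tissue was taken.

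WT mice had 0.47 ± 0.19 for Dbp and -0.44 ± 0.15 for Arntl, and 0.27 ± 0.25 and -0.25 ± 0.20 without the libraries that went against their labels. KO_abx_and_acetate, set against the same KO controls, had 0.59 ± 0.21 and -0.41 ± 0.16. Leaving out KO_control 1 reduced the clock list to 12 members above 0, with 3 higher and 0 lower at an unadjusted p under 0.05, where 2.59% of all genes were higher and 2.56% lower in that fit.

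CLOCK and BMAL1 bind the E-box CACGTG. It stood in the window of 5 of 17 members with a promoter in the table (Tef, Bhlhe41, Ciart, Per1 and Cry1), against 9.56% of 11038 genes. The D-box TTATGTAA, bound by DBP, TEF and NFIL3, stood in 1 of 17, Per3, against 0.643%. Ciart, with 4.23, 3.67 and 4.41 log2 CPM in KO_abx against 3.80, 3.44, 3.49 and 3.16 in KO_control, held 3 E-boxes, and Bhlhe41 held 1. Their windows are shown with the E-boxes in capitals.

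Ciart (chr3:95882229-95882478, GRCm38.p6, minus strand): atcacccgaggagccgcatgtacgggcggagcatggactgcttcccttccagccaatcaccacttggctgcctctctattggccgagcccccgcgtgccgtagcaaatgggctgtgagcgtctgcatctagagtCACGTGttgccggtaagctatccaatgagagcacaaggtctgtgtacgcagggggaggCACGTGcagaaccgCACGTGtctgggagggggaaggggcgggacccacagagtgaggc

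Bhlhe41 (chr6:145865421-145865670, GRCm38.p6, minus strand): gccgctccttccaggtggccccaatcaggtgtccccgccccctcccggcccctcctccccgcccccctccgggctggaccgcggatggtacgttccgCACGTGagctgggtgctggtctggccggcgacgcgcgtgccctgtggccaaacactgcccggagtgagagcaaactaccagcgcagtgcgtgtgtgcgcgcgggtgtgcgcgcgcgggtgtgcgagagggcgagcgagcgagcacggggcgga

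**Figure D5:**
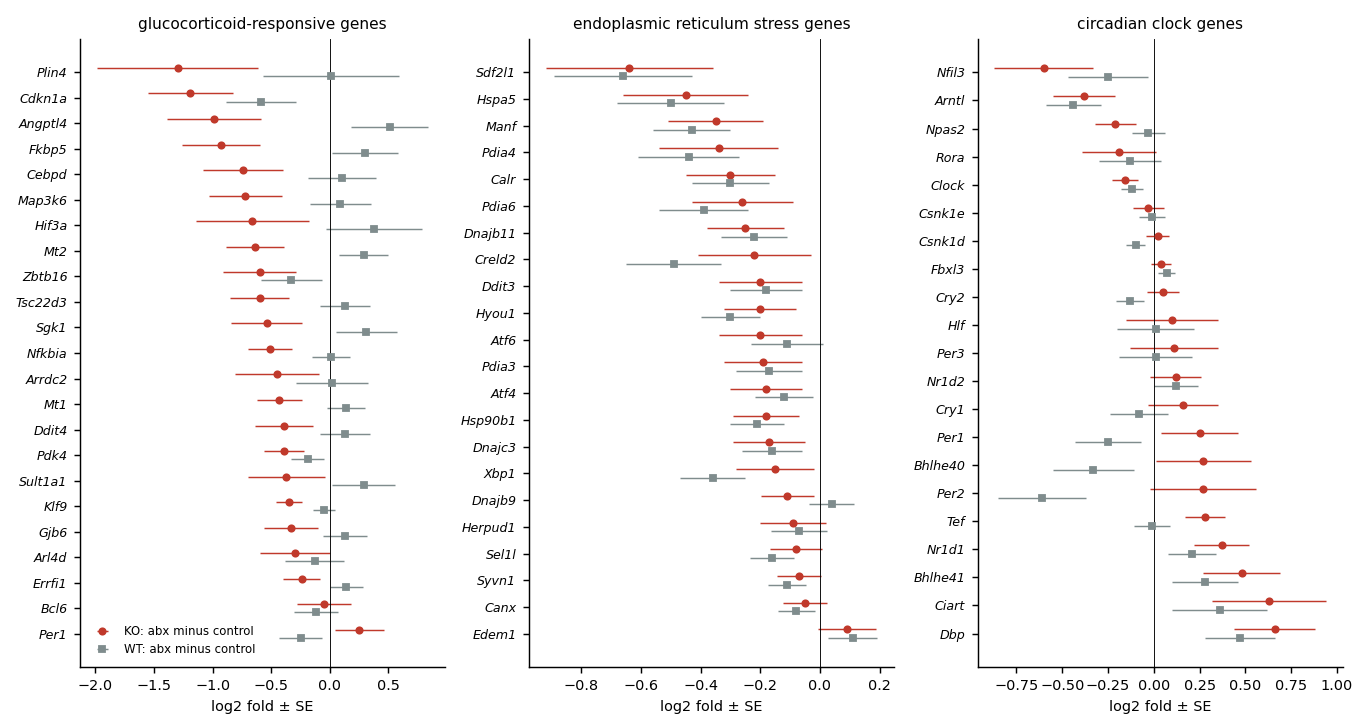
Log2 fold with SE of each measured member of 3 lists, in KO (antibiotics minus control, red) and in WT (antibiotics minus control, grey). The red and grey points lie close together for ER stress genes, and apart for many glucocorticoid-responsive genes, such as Fkbp5 at -0.93 in KO and 0.30 in WT. All libraries enter, including KO_control 1 and the WT libraries that went against their labels. Without those WT libraries Fkbp5 was at 0.08 ± 0.39 in WT.

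No neuronal activity gene passed the test. Activity-induced effectors, some of which act at synapses after firing, had a median of -0.23 with 15 of 21 members below 0. Their list scores were -0.37, -0.20 and -0.24 in KO_abx, against -0.50, -0.39, 0.15 and 0.43 in KO_control. KO_control 1 and 2 thus lay below every KO_abx library. By label, KO_control 1 and 2 and KO_abx 1 and 2 are males, and KO_control 3 and 4 and KO_abx 3 are females. The KO_abx males were above the control males on average, and the KO_abx female was below the control females. KO_control 4 was the highest library for 13 of the 21 members. With all libraries 2 members were lower at an unadjusted p under 0.05, where 1.65% of all genes were. Without KO_control 4, 12 members were below 0 with a median of -0.19. In that fit 0 members were lower at an unadjusted p under 0.05, where 1.26% of all genes were. Homer1, a postsynaptic scaffold that binds Shank proteins, had 7.09, 7.51 and 6.99 log2 CPM in KO_abx, against 7.11, 7.87, 8.03 and 8.47 in KO_control, a log2 fold of -0.65 ± 0.27. The neuropeptide precursor gene Vgf had 8.63, 8.76 and 8.75 in KO_abx, all below 8.93, 9.18, 9.12 and 9.37 in KO_control. The kinase gene Pim1 had a log2 fold of -0.55 ± 0.32. The immediate early transcription factors, induced by the same activity, had a median of 0.08 with 12 of 20 above 0. None was at an unadjusted p under 0.05, where 1.65% of all genes were in each direction. Their list scores split by sex in the same way, at -0.50, -0.29 and -0.13 in KO_abx and -0.87, -0.82, -0.04 and 0.24 in KO_control. The medians of both lists thus pool males and females whose scores went in opposite directions in these libraries, with only 1 female in KO_abx. A difference between the sexes was not tested. Genes of the synapse lay near 0: the median was -0.04 over 30 postsynaptic scaffold and adhesion genes, 0.01 over 27 glutamate receptor genes, 0.02 over 19 GABA receptor and inhibitory synapse genes and 0.03 over 18 synaptic vesicle genes.

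Cell type markers are given because fewer cells of a type and less RNA per cell cannot be told apart in bulk tissue. Astrocyte markers had a negative log2 fold in 19 of 20 members, with a median of -0.12; their summed level was 7100 to 9170 CPM in KO_abx and 8090 to 10100 CPM in KO_control. The glutamate transporter gene Slc1a2 had 10.90, 11.31 and 11.26 log2 CPM in KO_abx, against 11.34, 11.33, 11.54 and 11.36 in KO_control. Glul, which makes glutamine from glutamate, had a log2 fold of -0.21 ± 0.13, and the connexin gene Gjb6 one of -0.33 ± 0.23. KO_abx 1 was the lowest library for 14 of the 20 astrocyte markers, and without it the median was -0.05. Interneuron markers had a median of -0.11 with 14 of 17 below 0. The stress peptide gene Crh had 2.04, 2.82 and 2.46 in KO_abx, against 2.59, 2.68, 3.34 and 3.54 in KO_control, and the peptide gene Npy had 5.33, 5.47 and 5.41 in KO_abx, against 5.51, 5.66, 5.88 and 5.69 in KO_control. Log2 folds were -0.52 ± 0.31 for the peptide gene Cort and 0.31 ± 0.19 for Calb2, the calcium-binding protein calretinin.

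Oligodendrocyte and myelin markers summed to 1410 to 4980 CPM in KO_abx and 1900 to 4870 CPM in KO_control, and meningeal fibroblast markers to 486 to 1430 CPM in KO_abx and 486 to 1080 CPM in KO_control. In both lists the ranges of the groups overlapped widely. Haemoglobin genes and Alas2, which mark blood, had a median of -0.28 over 5 members, but the KO_abx 3 score of -1.01 stood alone, and without that library the median was 0.00. Alas2, the first enzyme of haem synthesis in red cells, had a log2 fold of -0.68 ± 0.42, Hbb-bt one of -0.34 ± 0.47 and Hba-a2 one of -0.28 ± 0.4. The alpha and beta haemoglobin genes have near-identical copies, so single members are uncertain. Microglia markers had a median of 0.08 with 0 of 24 at an unadjusted p under 0.05 in either direction, where 1.65% of all genes were in each. The part of these cell types in the gene groups above was not tested.

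No immune gene passed the test either. The inflammatory list had a median of -0.23 over 11 members, and of 0.09 without KO_control 1. Nfkbia, an inhibitor of NF-kappaB that is also glucocorticoid-induced, had 3.75, 3.74 and 3.69 log2 CPM in KO_abx, against 4.97, 3.53, 4.45 and 4.06 in KO_control, and Tlr2, a receptor for bacterial lipoproteins, had 1.04, 0.78 and 0.02 in KO_abx, against -0.36, -0.04, -0.17 and 0.61 in KO_control. Cd14, a coreceptor for bacterial lipopolysaccharide, had a log2 fold of -0.38 ± 0.29. The 28 interferon-stimulated genes had a median of 0.02. Genes of acetate and acetyl-CoA metabolism had a median of 0.02 over 15 members, and histone acetyltransferases and deacetylases 0.03 over 24. Cholesterol synthesis and uptake genes had a median of 0.09 with 17 of 24 above 0, and ribosomal protein genes of the cytosol 0.00 over 82. The remaining lists had medians between -0.08 and 0.10, with 0 members called in any of the 36.

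Whether the response to antibiotics differed between KO and WT was tested with the interaction. It called 0 genes (0%), with 197 (1.32%) higher and 171 (1.15%) lower in KO at an unadjusted p under 0.05. The lowest adjusted p was 0.073, for Gm2897 at -1.99 ± 0.36, and 0.869 without the WT libraries that went against their labels. Fam212a had a difference of 1.79 ± 0.37 (1.62 ± 0.36 without them). It had 0.75, 0.61 and 0.73 log2 CPM in KO_abx and -0.45 to 0.02 in KO_control, and -1.23 to 0.24 in WT_abx and 0.00 to 0.68 in WT_control. In KO all antibiotic libraries were above their controls. In WT the groups overlapped only through WT_abx 4 (0.24), a library that went against its label. WT_abx 1 to 3 had -0.40, -0.34 and -1.23, all below WT_control, and WT_abx 3 also went against its label.

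The other genes with the smallest interaction p, as values, were Gna15 (1.0 ± 0.27), Gm21949 (1.43 ± 0.40), Hps4 (0.62 ± 0.18) and Col6a4 (2.54 ± 0.74), higher in KO. Slc35f2 (-0.95 ± 0.24), Gm2260 (-3.49 ± 0.89), Nudcd2 (-0.45 ± 0.12) and Pdzd2 (-0.66 ± 0.19) were lower. Hps4, a lysosome-related organelle protein, had 4.14, 4.46 and 4.69 log2 CPM in KO_abx and 3.78 to 4.25 in KO_control, against 3.87 to 4.13 in WT_abx and 4.06 to 4.70 in WT_control. Without the libraries in question Gna15 was at 0.70 ± 0.27, and the other 7 kept their sign.

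For the same contrast in WT, 0 genes (0%) were called and 1345 (9.05%) were at an unadjusted p under 0.05; without the libraries that went against their labels 447 were. For KO_abx_and_acetate against the same KO controls, 0 genes (0%) were called and 1104 (7.42%) were at an unadjusted p under 0.05. Because the controls are shared, only values are set side by side: Hes5 was at 0.76 ± 0.23 in KO_abx and 0.56 ± 0.22 in KO_abx_and_acetate, Maml3 at -0.77 ± 0.23 and -0.82 ± 0.22, Cdkn1a at -1.19 ± 0.36 and -1.03 ± 0.33, and Pcdha5 at -0.56 ± 0.14 and -0.12 ± 0.13.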

How the data were processed

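RNA-seq of mPFC was deposited as 1 matrix; the authors' deposited values are log2 CPM for 14870 genes in 35 libraries, and limma, with no version, is named per the submitters' processing notes. Libraries were strand-marking and read as paired ends, per the labels' protocols; the sources used here do not give an aligner, a counter, a genome build or a filter. All values (100%, tolerance 0.01) came out as whole reads plus 0.5 over an effective library size, which gave each depth (12.8 to 28.0 M reads). 0 columns were left unused.

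All 35 libraries entered 1 fit of the deposited values in limma 3.58.1 (R 4.3.3) with 8 group means and labelled sex, and a prior variance that follows the mean. Tests were 2-sided, with Benjamini-Hochberg adjustment over every gene and a threshold of 0.05. Replicate numbers follow the order of the records and pair no libraries.

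Named were the called genes, filled to 12 in each direction by the smallest p among genes with a mean of at least 0, the Shank genes, Acr and Fgl1, the 10 lists of largest median with 3 members each and members with a role in the text, and 5 interaction genes in each direction. Gm2274, Anxa11, Gm10409, Gm3020, Gm3558 and Gm3696 were added once their values had been seen. The comparison, lists and rules were chosen with earlier results of these data known. Positions are from GENCODE vM21 (GRCm38; 97.0% of symbols matched), similar transcripts from blastn 2.17.0, and promoters from RefSeq. The alternatives were other sample sets, terms, weights, normalizations and a filter, and leaving out each KO_abx, KO_control, WT_abx and WT_control library in turn; the other libraries of the shared fit were not left out one by one.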

Additional observations from a re-analysis of the deposited data

Results flagged for a closer look

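In the 4 KO_control libraries, 66 quantities (the named genes, the list scores and depth) were examined for a library far from the other 3, and 3 stood out by Dixon's gap; chance gives about 1 in 20. Tvp23a had 4.82 log2 CPM in KO_control 1, against 5.0 to 5.01 in the other controls. The score of deep cortical layer markers was -0.65 in KO_control 4, against 0.00 to 0.13. The score of excitatory cortical neuron markers was -0.14 in KO_control 1, against 0.03 to 0.04.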

How the results depend on the processing

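In all, 0 genes were called between KO_abx and KO_control with the 7 libraries alone, the 16 KO libraries alone, the RNA integrity number as a term, or voom weights. Leaving out 1 KO library gave 0 to 1 called. It gave 864 to 1771 genes whose groups do not overlap, against 573 with all, a count that can only stay or rise with fewer libraries. The 2 calls held without the sex term, without the WT libraries that went against their labels, with array weights, with a filter at a mean of 0, and with median-centred or quantile-normalized values. The interaction called 1 gene with quantile normalization, and 0 to 1 when 1 library was left out. WT_abx against WT_control called 4 genes with array weights. KO_abx_and_acetate against KO_control called 1 gene with the 16 KO libraries alone and 1 with array weights. The causes of these changes in calls were not tested.

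The alternatives were run for 29 named genes (the 12 in each direction, the Shank genes, Acr and Fgl1), of which Shank3, Acr and Fgl1 changed sign in fits over both sexes. Within 1 sex, Shank2 (0.01), Shank3 (-0.27) and Acr (-0.12) in males and Fgl1 (0.32) in females had the other sign. With 1 KO library left out, Shank3 ranged between -0.10 and 0.20 (below 0 without KO_abx 3, and -0.05 without KO_control 3), and Fgl1 between -0.44 and 0.06 (above 0 without KO_abx 2). Acr was at -0.02 with the 7 libraries alone, 0.00 with the 16, -0.01 without the sex term, -0.01 without the WT libraries that went against their labels, and between -0.09 (without KO_control 3) and 0.29 with 1 KO library left out, with -0.02 also without KO_abx 1. No paired analysis was possible because the labels give no replicate numbers. Depth limits rare genes, and 851 genes had a mean below 0 log2 CPM. Array weights were 0.347 for KO_control 1 and 0.626 for KO_abx 3, against 1.02 to 1.43 for the other 5 KO libraries.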
